A study of Mus musculus with 18 samples.

Results

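The transcripts described here are the cyclins of the A, B, D and E types and Cdk1, the kinase that drives entry into mitosis, in single mouse 2-cell embryos. They are 10 rows of the 26823 RefSeq transcripts in the count tables, taken by their RefSeq identifiers and not by their values: Cdk1 (NM_007659), Ccna1 (NM_007628), Ccna2 (NM_009828), Ccnb1 (NM_172301), Ccnb2 (NM_007630), Ccnd1 (NM_007631), Ccnd2 (NM_009829), Ccnd3 (NM_007632), Ccne1 (NM_007633) and Ccne2 (NM_009830). All 10 rows were present in the table of each of the 18 embryos. RNA sequencing was performed on 9 embryos of wild-type fathers (fathers 1, 2 and 3) and 9 embryos of Parg(110)-/- fathers (fathers 6, 7 and 8), with 3 embryos per father. Parg encodes the glycohydrolase that degrades poly(ADP-ribose), and the study asked whether males with disturbed poly(ADP-ribose) metabolism, whose sperm retain an abnormal set of histones, sire embryos with altered gene expression. Fathers of both groups had the 129SVE background and were mated naturally with wild-type 129SVE females, so the labelled genotype is that of the father, and the embryos of Parg(110)-/- fathers carry the allele in the heterozygous state. They are called Parg(110) embryos below. The fathers carried the disruption in all their cells, and effects through sperm chromatin and through the inherited allele therefore cannot be told apart. The ages of the animals and the hour of collection were not given in the sources used here.

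Cyclins bind and activate cyclin-dependent kinases and set the order of the cell cycle. D-type cyclins respond to growth signals in G1, E-type cyclins drive entry into S phase with Cdk2, A-type cyclins act in S phase and G2, and B-type cyclins form the mitotic kinase with Cdk1. The mouse oocyte stores Cdk1 and cyclin mRNAs for the meiotic divisions and the earliest cleavages, and the 2-cell stage is when most maternal mRNA is destroyed and the embryonic genome becomes active. Reads from stored maternal mRNA and from new embryonic transcripts cannot be told apart in these tables.

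Levels are given as CPM, counts scaled to a common library total, so that less of a transcript and more of all others cannot be told apart. Totals ran from 2852858 to 13355161 counts per wild-type embryo and from 3560501 to 12497060 per Parg(110) embryo, so that 1 count was worth between 0.0749 and 0.351 CPM. A transcript at 0 counts may have had a level of up to 3 counts, or 0.225 to 1.05 CPM depending on the embryo, a limit that covers counting error only because the cDNA was amplified without molecular identifiers. Spearman's correlation of CPM between embryos ran from 0.675 to 0.805 over the 153 pairs. Oocyte markers such as Gdf9 and Nlrp5 were counted in all 18 embryos, with a list of 11 summing to between 751 and 1240 CPM in wild-type and between 671 and 1940 CPM in Parg(110) embryos. Nlrp5 had the largest part of that sum, with means of 452 CPM in wild-type and 512 CPM in Parg(110) embryos. Mos was counted in only 10 embryos and Ooep in 16, and Zp1 and Zar1 fell to 0.263 and 0.281 CPM in their lowest embryo. A list of 11 genes of the 2-cell stage, led by Usp17lb, Tdpoz4 and Eif1a, summed to between 31.9 and 165 CPM in wild-type and between 15.2 and 222 CPM in Parg(110) embryos. Of this list only Usp17lb and Tdpoz4 were counted in all 18 embryos. Zscan4d, Zscan4c and Zscan4f were counted in 16, 14 and 11 embryos, with wild-type means of 5.94, 3.17 and 0.385 CPM, and Gm4340 in 4. Of 12 cumulus and granulosa markers, Amh, Foxl2, Inha, Fshr and Tnfaip6 were at 0 in every embryo, while Amhr2 was counted in all 18 (up to 33.5 CPM) and Cyp19a1 and Star in 10 each, and the list summed to between 3.86 and 45.2 CPM in wild-type and between 5.94 and 26.8 CPM in Parg(110) embryos. Of 10 sperm markers, Prm1, Tnp1, Tnp2, Odf1 and Spata18 were at 0 throughout, and nearly all of the sum of 394 to 756 CPM in wild-type and 305 to 706 CPM in Parg(110) embryos came from Odf2. Parg itself was at 74.7 ± 32.1 CPM (SD, n = 9) in wild-type and 46.4 ± 18.3 CPM (n = 9) in Parg(110) embryos, a log2 fold change of -0.67 (SE 0.34) that did not pass the test (adjusted p = 0.872, from the quasi-likelihood test of edgeR and adjusted by Benjamini and Hochberg's method), and as the mothers and 1 allele of each embryo were wild-type it does not check the labels.

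The promoters of Cdk1 and both B-type cyclins are printed first because these are the partners of the mitotic kinase and because Cdk1 and Ccnb2 lay at the opposite ends of the differences between the groups. Each sequence is RefSeq's, runs from 250 bases before to 50 bases after the transcription start, was found at a single place in mm9, and is written 5′ to 3′ on the strand of the gene. The capitals mark the letters TTTGAA or, on the opposite strand, TTCAAA, the core of the cell cycle genes homology region, and the letters CCAAT or ATTGG of the CCAAT box. Cdk1 (chr10:68815611-68815910, minus strand), Ccnb2 (chr9:70269312-70269611, minus strand) and Ccnb1 (chr13:101556392-101556691, minus strand) read as follows.
Cdk1: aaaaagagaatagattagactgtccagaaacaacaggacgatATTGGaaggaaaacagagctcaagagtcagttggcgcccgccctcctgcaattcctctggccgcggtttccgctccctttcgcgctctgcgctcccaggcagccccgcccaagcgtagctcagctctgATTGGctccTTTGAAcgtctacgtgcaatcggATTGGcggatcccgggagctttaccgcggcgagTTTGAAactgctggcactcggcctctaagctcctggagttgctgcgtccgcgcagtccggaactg
Ccnb2: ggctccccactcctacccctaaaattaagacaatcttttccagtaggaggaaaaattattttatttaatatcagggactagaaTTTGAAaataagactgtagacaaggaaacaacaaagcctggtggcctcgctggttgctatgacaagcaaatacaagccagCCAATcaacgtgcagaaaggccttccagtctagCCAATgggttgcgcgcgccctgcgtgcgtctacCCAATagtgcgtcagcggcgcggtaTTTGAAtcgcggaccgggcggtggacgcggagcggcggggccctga
Ccnb1: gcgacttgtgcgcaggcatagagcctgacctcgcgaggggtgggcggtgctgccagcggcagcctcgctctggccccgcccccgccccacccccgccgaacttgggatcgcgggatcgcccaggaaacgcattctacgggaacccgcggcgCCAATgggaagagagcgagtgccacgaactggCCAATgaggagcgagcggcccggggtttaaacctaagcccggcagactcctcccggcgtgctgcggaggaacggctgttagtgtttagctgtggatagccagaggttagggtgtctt

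The Cdk1 promoter held TTTGAA at 2 places, starting at -71 and -15 from the start site, and ATTGG at 3 places, starting at -208, -80 and -48. The Ccnb2 promoter also held TTTGAA at 2 places, at -167 and 5, and CCAAT at 3, at -87, -54 and -21. The Ccnb1 promoter held CCAAT at -99 and -67 and TTTGAA nowhere in this window. Other letters were not searched, so this absence covers TTTGAA and TTCAAA only. Among 32851 RefSeq promoters of the same length, 17.9% held the first motif on either strand, 37.4% held the CCAAT letters and 7.0% held both, while 2.3% held the first motif at 2 or more places. The reference table had entries for 6 of the 10 members. Ccna1 had 1 CCAAT match, Ccne1 had neither motif, and of the 2 start sites of Ccnd3 one had a CCAAT match and the other had neither. Ccna2, Ccnd1, Ccnd2 and Ccne2 had no entry. Cdk1 and Ccnb2 thus shared both motifs in this window. Neither of their differences between the groups, given below, passed the test, and a link between these motifs and the levels was not tested.

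No cyclin and not Cdk1 passed the test between the groups. Of the 10 members, 9 reached 10 counts in 3 or more embryos and were tested, and 0 of the 9 passed an adjusted p below 0.1, where 0 of all 15333 transcripts tested (0%) passed. At an unadjusted p below 0.05, 1 member stood out, Cdk1, against 889 of 15333 transcripts (5.8%), of which those lower in Parg(110) embryos made up 3.32% of all tested, and with DESeq2 in place of edgeR 0 members and 38 of 12954 transcripts (0.293%) passed the adjusted threshold. The log2 fold change, Parg(110) minus wild-type, was positive for 6 members and negative for 3, with a median of 0.05 over the members beside -0.02 over all transcripts tested. The p-values treat the 9 embryos of a group as independent, although 3 share each father.

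**Figure D1:**
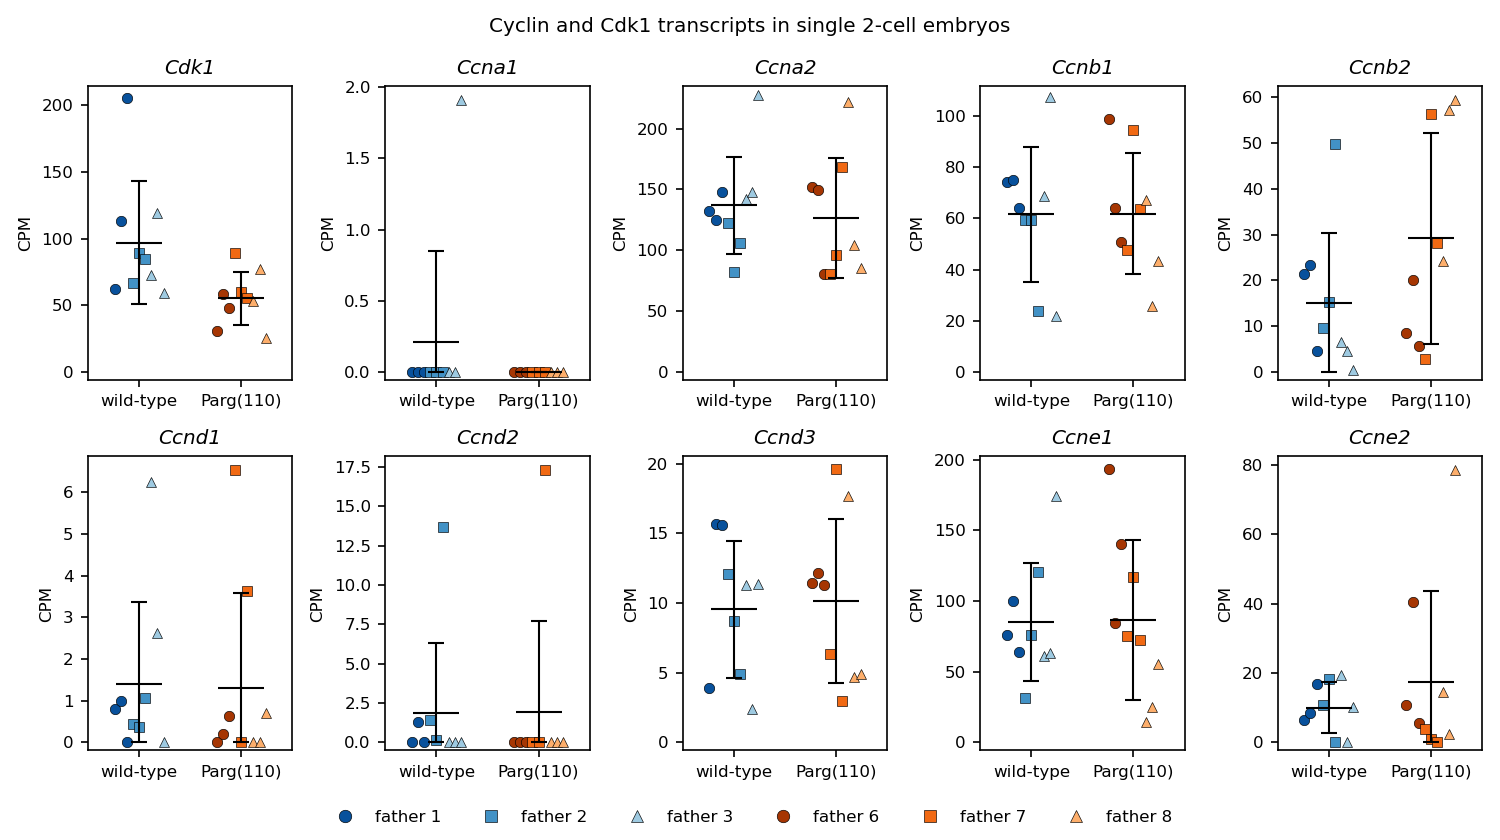
CPM of each of the 10 transcripts in every embryo, with wild-type embryos in blue and Parg(110) embryos in orange, a symbol for each father, a horizontal line at the mean and bars of 1 SD that are drawn down to 0 at most. For Cdk1, 6 of 9 Parg(110) embryos sit under the lowest wild-type embryo, a count whose share over all transcripts tested was not computed. The groups overlap widely for the cyclins, and Ccnd1, Ccnd2 and Ccna1 sit at or near 0 in most embryos.

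Cdk1 is the catalytic subunit of the mitotic kinase and is encoded at chr10:68799383-68815686 (mm9, minus strand). Wild-type embryos ran from 58.8 CPM at the lowest through a median of 84.8 to 206 at the highest, with a mean of 96.8 ± 46.0 CPM (SD, n = 9). Parg(110) embryos ran from 25.4 through a median of 55.3 to 89.3 CPM, with a mean of 55.1 ± 20.1 CPM (n = 9). Of the Parg(110) embryos, 6 of the 9 lay below every wild-type embryo, while embryos 7-1 (father 7, embryo 1), 8-2 and 7-2 at 89.3, 77.0 and 59.7 CPM lay within the wild-type range. The share of all transcripts tested with such a count of embryos was not computed, so the count does not set Cdk1 apart from them. The count behind these levels was 242 to 1426 in wild-type and 183 to 559 in Parg(110) embryos, so that counting error was small beside the spread between embryos. The log2 fold change was -0.82 (SE 0.32, 95% interval -1.44 to -0.19), a level 0.567 times that of wild-type, with an unadjusted p of 0.0169 and an adjusted p of 0.653 by edgeR's quasi-likelihood test, and 2.58% of all transcripts tested had a smaller p. DESeq2 gave -0.80 with an adjusted p of 0.387.

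The Cdk1 difference was also compared on the scale of the fathers, the unit that received the genotype. The father means were 127, 80.2 and 83.6 CPM for wild-type fathers 1, 2 and 3, and 45.3, 68.1 and 51.8 CPM for Parg(110)-/- fathers 6, 7 and 8. All 3 Parg(110)-/- fathers thus lay below all 3 wild-type fathers, an order that 5.87% of the transcripts tested showed in the same direction. An exact two-sided permutation of the 6 fathers gave p = 0.1, which is the smallest value that 3 against 3 can give. An exact two-sided permutation of the embryos, which ignores that 3 share each father, gave p = 0.0086. This value was computed for each of the 10 members without adjustment for their number. Both permutations were added after the data were seen. The difference leaned on embryo 1-3, the highest of wild-type at 206 CPM against 119 for the next. Without that embryo the log2 fold change was -0.60 (unadjusted p = 0.0681, adjusted p = 0.975), and without wild-type father 1 it was -0.56 (adjusted p = 1.0), both from edgeR's quasi-likelihood test. In none of 33 alternatives did the sign of Cdk1 turn, and in none did its adjusted p, which ran from 0.149 to 1.0, pass the threshold.

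The A-type cyclins were represented almost entirely by Ccna2. Ccna2, the somatic cyclin A of S phase and G2 (chr3:36463788-36471072, minus strand), ran from 82.3 through a median of 132 to 228 CPM in wild-type embryos (137 ± 40.0, n = 9) and from 80.0 through 104 to 222 CPM in Parg(110) embryos (126 ± 49.4, n = 9). Each group had 1 embryo well above the rest, 3-3 in wild-type and 8-1 in Parg(110), and the ranges were nearly the same. The log2 fold change was -0.11 (SE 0.26, 95% interval -0.61 to 0.39, adjusted p = 0.992). Ccna1, the cyclin A of male meiosis (chr3:54849391-54858977, minus strand), had 17 counts (1.91 CPM) in wild-type embryo 3-3 and 0 in the other 17 embryos, too few to be tested between the groups. Ccna2 therefore took at least 98.4% of the A-type level per kilobase of transcript in each embryo, and it was the steadiest member, with a coefficient of variation of 33.3% over the 18 embryos, below which only 4.1% of the transcripts tested lay. That ranking was not matched for level, and by mean CPM, without regard to length, Ccna2 lay above 93.4% of the transcripts detected.

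The B-type cyclins, the partners of Cdk1 in mitosis, differed in how much they varied. Ccnb1 (chr13:101548605-101556525, minus strand) ran from 21.6 through a median of 64.3 to 108 CPM in wild-type (61.6 ± 26.3, n = 9) and from 25.8 through 63.8 to 99.0 CPM in Parg(110) embryos (61.9 ± 23.6, n = 9). The 2 groups covered the same range, and the log2 fold change of 0.01 (SE 0.35) had a 95% interval of -0.67 to 0.69 (adjusted p = 1.0). Ccnb2 (chr9:70255496-70269361, minus strand) ran from 0.338 through 9.51 to 49.8 CPM in wild-type (15.1 ± 15.2, n = 9) and from 2.77 through 24.2 to 59.5 CPM in Parg(110) embryos (29.2 ± 23.0, n = 9). Embryos 7-2, 8-2 and 8-3 lay above the highest wild-type embryo, at 56.5, 57.3 and 59.5 CPM, and embryo 7-1 at 2.77 CPM lay below all wild-type embryos but 3-3. Its log2 fold change of 0.96 (SE 0.70) was the highest of the members, with a 95% interval of -0.40 to 2.33 (unadjusted p = 0.179, adjusted p = 0.943 by edgeR's quasi-likelihood test). The exact two-sided permutation of embryos, which ignores that 3 share each father, gave p = 0.139. The exact two-sided permutation of the 6 fathers gave p = 0.4, and the father means of the groups overlapped. The wild-type value of 0.338 CPM rests on 3 counts.

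The balance of the B types varied widely between embryos. Ccnb1 made up 75% ± 22.6 (SD, n = 9) of the B-type level per kilobase of transcript in wild-type, with a range of 22.9% to 97.5%, and 61.8% ± 24.5 (n = 9) in Parg(110) embryos, with a range of 21.8% to 91.4%. Ccnb2 exceeded Ccnb1 on this scale in 3 embryos, 2-3 of wild-type and 8-2 and 8-3 of Parg(110). Cdk1 exceeded Ccnb1 on the same scale in 5 of 9 wild-type embryos and in 2 of 9 Parg(110) embryos, 7-1 and 8-2.

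Of the D-type cyclins, which link growth signals to the Rb pathway in G1, Ccnd3 was the main transcript, and Ccnd1 and Ccnd2 were at or near 0 in most embryos. Ccnd3 (chr17:47642000-47736632, plus strand) ran from 2.37 through a median of 11.3 to 15.7 CPM in wild-type (9.53 ± 4.90, n = 9) and from 2.96 through 11.3 to 19.6 CPM in Parg(110) embryos (10.1 ± 5.89, n = 9). The medians were equal at this rounding, and the log2 fold change was 0.09 (SE 0.61, adjusted p = 1.0). The files have 2 further rows for Ccnd3 isoforms whose counts equal those of this row in 17 of 18 embryos, so the 3 rows share reads and are not separate measurements. Ccnd3 took 84.3% ± 19.02 (n = 9) of the D-type level per kilobase in wild-type and 86.4% ± 25.6 (n = 9) in Parg(110) embryos.

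Ccnd1 (chr7:152115836-152125774, minus strand) had counts in 7 of 9 wild-type embryos, from 0 through a median of 0.792 to 6.25 CPM, and in 5 of 9 Parg(110) embryos, from 0 through 0.209 to 6.54 CPM. The highest embryo of each group, 3-1 and 7-1, had about the same level, and the log2 fold change of -0.09 (SE 1.41) had a 95% interval of -2.85 to 2.68. Ccnd2 (chr6:127075797-127101066, minus strand) had counts in 4 of 9 wild-type embryos, with 13.7 CPM in embryo 2-3 and at most 1.42 CPM elsewhere, and in 1 of 9 Parg(110) embryos, 7-3, with 76 counts or 17.3 CPM. In embryos 2-3 and 7-3 alone Ccnd2 exceeded Ccnd3 per kilobase. The log2 fold change of 0.06 (SE 1.82, 95% interval -3.50 to 3.63) rests on those embryos and turned negative with DESeq2 (-3.52), with the embryo number as replicate block (-2.87) and with limma (-1.08), none past the threshold. At these counts a difference in Ccnd1 or Ccnd2 of several fold in either direction was not detectable.

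The E-type cyclins, activators of Cdk2 at the start of S phase, were dominated by Ccne1. Ccne1 (chr7:38883003-38892553, minus strand) ran from 31.4 through a median of 75.9 to 175 CPM in wild-type (85.2 ± 42.0, n = 9) and from 14.0 through 75.3 to 193 CPM in Parg(110) embryos (86.5 ± 56.6, n = 9). The group medians lay close together, while the Parg(110) embryos reached both higher and lower than wild-type. The log2 fold change was 0.05 (SE 0.41, 95% interval -0.76 to 0.85, adjusted p = 1.0). Ccne2 (chr4:11118498-11131926, plus strand) had counts in 7 of 9 wild-type embryos, from 0 through a median of 10.2 to 19.3 CPM (10.03 ± 7.22, n = 9), and in 8 of 9 Parg(110) embryos, from 0 through 5.599 to 78.6 CPM (17.5 ± 26.1, n = 9). Embryos 8-3 at 78.6 CPM and 6-2 at 40.5 CPM were the only ones above the highest wild-type embryo. Its log2 fold change of 0.82 (SE 0.99, 95% interval -1.13 to 2.77, adjusted p = 0.971) was -0.02 without embryo 8-3. A second Ccne2 row had the same count in 14 of 18 embryos. Ccne1 exceeded Ccne2 per kilobase in all 18 embryos and made up 91.2% ± 7.38 (n = 9) of the E-type level on that scale in wild-type and 85.6% ± 18.7 (n = 9) in Parg(110) embryos.

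Levels of different members can be compared only per length, here as CPM per kilobase of the longest coding transcript of GENCODE. That transcript need not be the RefSeq transcript that was counted, whose own length was not used, so comparisons between members depend on this choice. In wild-type embryos the order of the means was Ccna2 at 46.2 ± 13.5, Ccne1 at 42.6 ± 21.0, Cdk1 at 33.6 ± 15.95, Ccnb1 at 24.7 ± 10.6, Ccnb2 at 9.77 ± 9.88, Ccnd3 at 4.51 ± 2.32, Ccne2 at 3.34 ± 2.40, and then Ccnd1, Ccnd2 and Ccna1 at 0.372, 0.321 and 0.136 (SD, n = 9). The only neighbours in that order whose mean difference within embryos exceeded its SD were Ccne2 and Ccnd1, at 2.97 ± 2.37 and with Ccne2 higher in 7 of 9 embryos. Ccna2 exceeded Ccne1 in 5 of 9 embryos and Cdk1 exceeded Ccnb1 in 5 of 9, so these pairs did not differ beyond their spread.

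In Parg(110) embryos Ccne1 at 43.2 ± 28.3 and Ccna2 at 42.7 ± 16.7 CPM per kilobase again led, and Cdk1 at 19.1 ± 6.97 came after Ccnb1 at 24.9 ± 9.49 and close to Ccnb2 at 18.9 ± 15.0 (n = 9). Ccna2 lay above Ccnb1 in 8 of 9 embryos, by 17.8 ± 15.95, and Ccnd3 above Ccnd1 in 9 of 9, by 4.44 ± 3.14, whereas every other neighbouring pair differed by less than its SD. Ccnb1 exceeded Cdk1 in 7 of 9 embryos, by 5.78 ± 13.7.

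**Figure D2:**
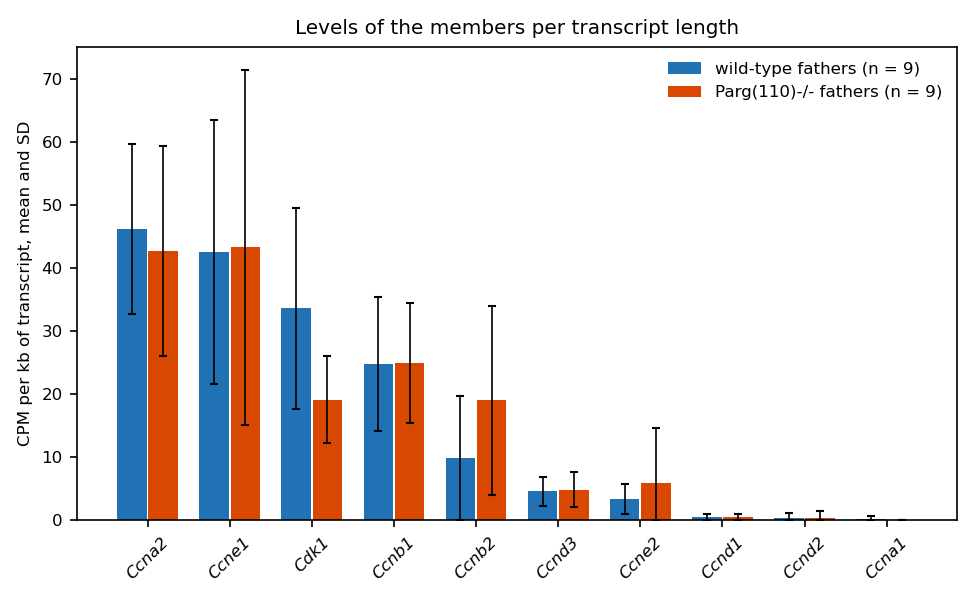
Mean level of each member in CPM per kilobase of its longest coding transcript, for 9 wild-type embryos (blue) and 9 Parg(110) embryos (orange), with bars of 1 SD that are cut off at 0. Ccna2 and Ccne1 are the highest in both groups, Cdk1 goes from 33.6 in wild-type to 19.1 in Parg(110) embryos, and Ccnd1, Ccnd2 and Ccna1 are near 0.

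The members differed widely in their spread between embryos. Over all 18 embryos the coefficient of variation was 39.3% for Ccnb1, 53.5% for Cdk1, 53.6% for Ccnd3, 56.3% for Ccne1, 91.7% for Ccnb2, 137.7% for Ccne2, 154.1% for Ccnd1 and 266.9% for Ccnd2, beside a median of 108.4% over all transcripts tested, which were not matched to the members for level. Cdk1, Ccna2, Ccnb1, Ccnb2, Ccnd3 and Ccne1, or 6 of the 9 members tested, were counted in every embryo, as were 45% of the transcripts tested. Correlations between members were computed as a description. Among the 15 pairs of the 6 members counted in every embryo, Pearson's r of log2(CPM + 1) over the 18 embryos ran from -0.304 for Ccnb2 and Ccne1 to 0.173 for Ccnb1 and Ccnd3, each pair sharing the same libraries. Among pairs with a member that was at 0 in some embryos it ran from -0.56 for Ccna1 and Ccnb2 to 0.462 for Ccna1 and Ccna2, where Ccna1 had counts in 1 embryo, and was -0.552 for Ccnd2 and Ccne2.

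The transcript of another gene with the most similar profile over the 18 embryos was sought for each member among 7646 to 7648 transcripts of mean CPM 10 or more. By Pearson's r of log2(CPM + 1), Cdk1 was most like Rbm15 (r = 0.805), which encodes an RNA-binding protein. Ccna2 was most like Ncbp1 (r = 0.792), a subunit of the nuclear cap-binding complex, and Ccnb1 was most like Rps28 (r = 0.786), a protein of the small ribosomal subunit. The best match was Chp1 for Ccnb2 (r = 0.687), Cers5 for Ccnd3 (r = 0.773), Wdr36 for Ccne1 (r = 0.739) and R3hdm4 for Ccne2 (r = 0.699). For the sparse Ccnd1 and Ccnd2 it was Srsf3 (r = 0.834) and Sp140 (r = 0.767). Each is the highest of all values computed for its member and describe likeness in these libraries.

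Each Parg(110)-/- father's 3 embryos were then set against all 9 wild-type embryos, since the embryos of a father form a family. Of 23 tests of members, 0 passed the adjusted threshold, and the background was 0.00696% of transcripts for father 6 and 0% for fathers 7 and 8. At an unadjusted p below 0.05 there were 2, Cdk1 for father 6 and Ccne1 for father 8, beside 7.18%, 8.78% and 8.94% of all transcripts for fathers 6, 7 and 8. For Cdk1 the 3 fathers lay on the same side, with log2 fold changes of -1.09 (SE 0.46) for father 6, -0.50 (SE 0.46) for father 7 and -0.93 (SE 0.49) for father 8, and adjusted p-values from 0.589 to 0.853 by edgeR's quasi-likelihood test. The 3 comparisons share the wild-type embryos and are not independent.

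Ccne1 was the member with the smallest unadjusted p between the Parg(110)-/- fathers. The embryos of father 6 had 193, 84.6 and 141 CPM, those of father 7 had 75.3, 117 and 72.7 CPM, and those of father 8 had 14.0, 25.3 and 55.3 CPM. Every embryo of father 6 lay above every embryo of father 8, a separation that 6% of all transcripts tested showed in this direction and 10.3% in either. These shares take the same pair of fathers for every transcript. They do not allow for fathers 6 and 8 having the highest and lowest Ccne1 means, or for Ccne1 being picked among the members by its p. Of the embryos of father 8, 2 lay below the lowest wild-type embryo at 31.4 CPM. Against wild-type, the log2 fold change was 0.73 (SE 0.43, adjusted p = 0.818) for father 6, 0.08 for father 7 and -1.41 (SE 0.57, unadjusted p = 0.0229, adjusted p = 0.556) for father 8. Among the Parg(110)-/- fathers themselves, edgeR's quasi-likelihood test gave Ccne1 an unadjusted p of 0.0226 and an adjusted p of 1.0, where 4.71% of 12501 transcripts had an unadjusted p below 0.05. The same edgeR test among the wild-type fathers gave it an adjusted p of 0.997, where 5.33% of transcripts had an unadjusted p below 0.05. The mean CPM of wild-type fathers ran from 76.0 to 99.7 for Ccne1, and that of Parg(110)-/- fathers from 31.6 to 140.

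The father values of the other members varied as well. Ccnb2 had log2 fold changes of -0.39, 0.98 and 1.64 for fathers 6, 7 and 8, with father means of 11.4, 29.2 and 47.0 CPM, and the embryos within each father spread widely. Ccne2 had 0.93, -2.59 and 1.69, and Ccna2 had -0.08, -0.24 and -0.03. None of these passed the test, and among the Parg(110)-/- fathers the unadjusted p was 0.212 for Ccnb2, 0.0763 for Ccne2 and 0.940 for Ccna2.

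**Figure D3:**
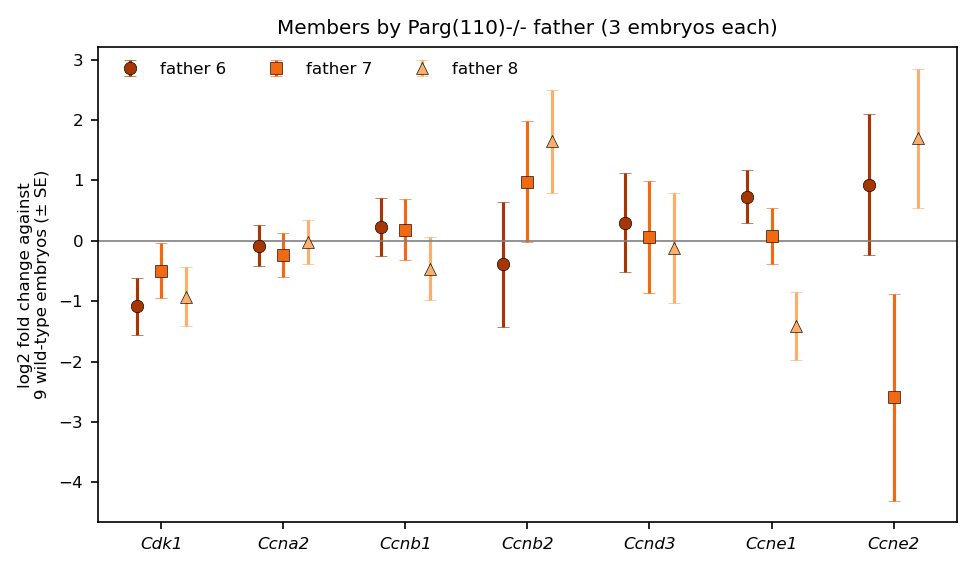
Log2 fold change of 7 members against the 9 wild-type embryos, by Parg(110)-/- father (3 embryos each), with bars of 1 SE; Ccnd1, Ccnd2 and Ccna1 were not tested for every father. The 3 points of Cdk1 lie below 0, those of Ccne1 run from 0.73 for father 6 to -1.41 for father 8, and none passed the adjusted threshold.

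Each Parg(110) embryo was also compared alone with the 9 wild-type embryos, as a product of a single sperm. In these fits DESeq2 gave Ccna1, Ccnd1 and Ccnd2 no adjusted p in any embryo, so their tests could not be called with it. The DESeq2 shares over all transcripts likewise cover only transcripts with an adjusted p. Of 90 tests of members, 9 of them of Ccna1 in embryos where it had 0 counts, 0 passed the adjusted threshold with edgeR, where 0.027%, 0.0108% and 0.0162% of transcripts passed in the embryos of father 6, 0.157%, 0.157% and 0.103% in those of father 7, and 0%, 0.0545% and 0% in those of father 8. At an unadjusted p below 0.05 there were 4, beside 5.49%, 4.68% and 3.96% of transcripts in the embryos of father 6, 7.34%, 8.47% and 6.03% in those of father 7, and 4.95%, 5.98% and 4.62% in those of father 8. Ccne1 in embryo 8-1 had a log2 fold change of -2.68 (SE 0.96, adjusted p = 0.725), and Cdk1 in embryo 8-3 had -1.88 (SE 0.85, adjusted p = 0.690). Ccne2 in embryo 8-3 had 3.01 (SE 1.40, adjusted p = 0.690), and in embryo 7-3 it had 0 counts, for which no fold is given (adjusted p = 0.692). With DESeq2, 2 of the 90 passed, Ccne1 in embryo 8-1 (adjusted p = 0.0642) and Ccne2 in embryo 7-3 (adjusted p = 0.0965). DESeq2 called 7.28%, 4.32% and 3.15% of transcripts in the embryos of father 6, 8.9%, 14.7% and 7.03% in those of father 7, and 4.01%, 7.2% and 4.77% in those of father 8, so the share of members called did not exceed the background.

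The partners, regulators and targets of the members were read from lists of 68 genes, all of them in the files and 64 of them tested. In the comparison of the 9 Parg(110) with the 9 wild-type embryos, 0 of the 64 passed the adjusted threshold in either direction with edgeR or DESeq2, 5 were higher and 1 lower in Parg(110) embryos at an unadjusted p below 0.05 (beside 2.48% higher and 3.32% lower of all transcripts tested), and 37 had a positive and 27 a negative log2 fold change, with a median of 0.17 beside -0.02 over all transcripts. From each list the genes with the 2 smallest p-values are named below.

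Among 15 other cyclins, 9 differences were positive and 6 negative, with a median of 0.22. Ccng1, a cyclin induced by p53, had 0.890 ± 1.21 CPM in wild-type and 6.64 ± 7.73 CPM in Parg(110) embryos (log2 fold change 2.91, SE 1.28, adjusted p = 0.805), and Ccnf, the F-box cyclin that binds substrates for degradation, had 53.7 ± 35.0 and 30.0 ± 15.3 CPM (-0.84, SE 0.43, adjusted p = 0.872). Among 7 other Cdks and Cdk-binding proteins, 5 were positive and 2 negative, with a median of 0.23. Cks1b, a small subunit that binds Cdk1 and Cdk2, had 19.95 ± 9.92 CPM in wild-type and 48.5 ± 38.5 CPM in Parg(110) embryos (1.28, SE 0.50, unadjusted p = 0.0179, adjusted p = 0.671). Mnat1, the assembly factor of the Cdk-activating kinase, had 11.9 ± 11.8 and 4.78 ± 8.40 CPM (-1.31, SE 1.25). Cdk1 and its binding subunit Cks1b had thus differences of opposite sign, neither past the threshold.

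Among 7 Cdk inhibitors, 4 were positive and 3 negative, with a median of 0.07, and the smallest p belonged to Cdkn1c, the inhibitor p57 (-1.45, SE 1.08, adjusted p = 0.943), and Cdkn2d, an inhibitor of the D-type kinases (1.58, SE 1.63). Of the 3 Cdc25 phosphatases, which activate the Cdks, 2 were positive and 1 negative, with a median of 0.31. Cdc25a had 57.3 ± 45.4 CPM in wild-type and 38.8 ± 34.2 CPM in Parg(110) embryos, and Cdc25c had 44.97 ± 28.6 and 55.1 ± 23.5 CPM. Among 20 genes of cyclin degradation, 11 were positive and 9 negative, with a median of 0.18, led by 2 subunits of the anaphase-promoting complex. Anapc4 had 47.6 ± 25.9 CPM in wild-type and 86.5 ± 58.1 CPM in Parg(110) embryos (0.87, SE 0.41, adjusted p = 0.839), and Anapc7 had 28.6 ± 18.3 and 71.7 ± 142 CPM (1.32, SE 0.67, adjusted p = 0.872).

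Among 12 genes of the Rb and E2f families, which govern transcription of many cyclins, 6 were positive and 6 negative, with a median of -0.07. E2f1, an activator of S-phase genes, ran from 163 to 370 CPM in wild-type (239.5 ± 62.3, n = 9) and from 103 to 223 CPM in Parg(110) embryos (154.9 ± 40.7, n = 9). The 2 ranges overlapped, and its log2 fold change of -0.63 (SE 0.22, unadjusted p = 0.00985) had an adjusted p of 0.530, the smallest over the 64 genes. E2f5, which acts as a repressor, had 36.7 ± 28.1 CPM in wild-type and 75.0 ± 40.1 CPM in Parg(110) embryos (1.06, SE 0.46, adjusted p = 0.794).

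**Figure D4:**
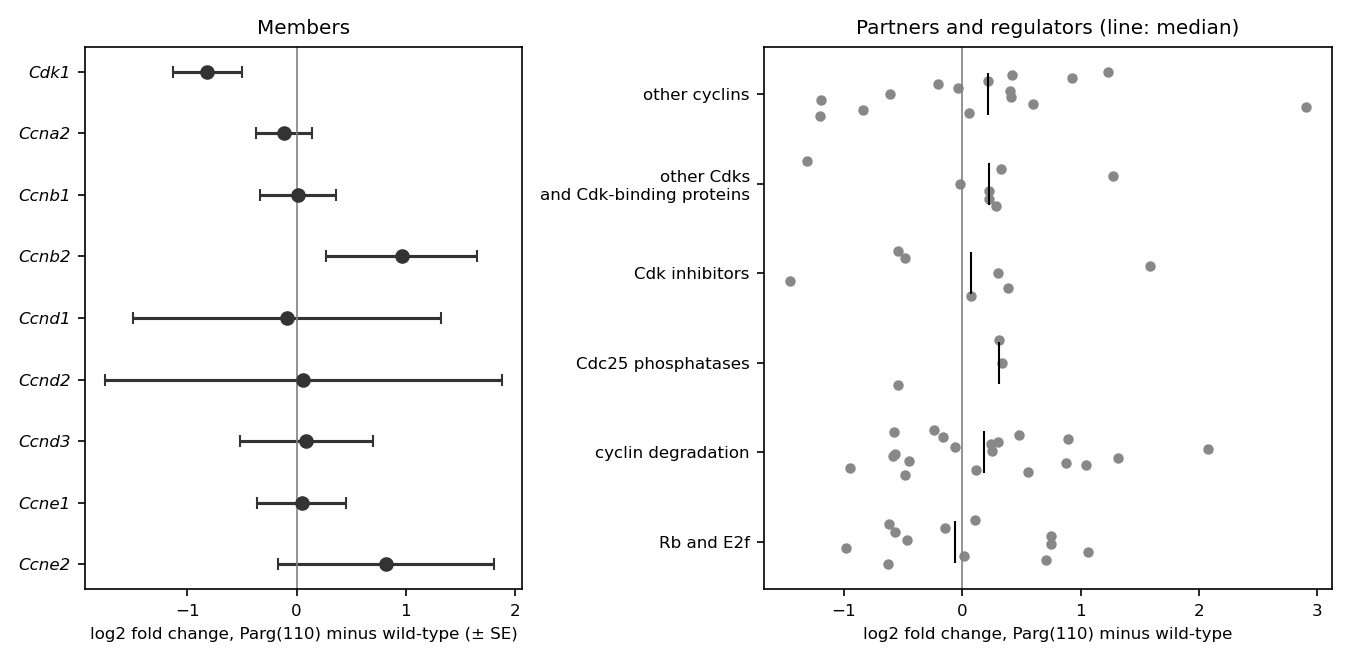
Left, log2 fold change of the 9 tested members, Parg(110) minus wild-type, with bars of 1 SE. Right, the same quantity for the 64 tested partners and regulators, 1 point per gene, with a line at the median of each list; Cdk1 at -0.82 and Ccnb2 at 0.96 lie at the ends of the members, and the medians of the 6 lists lie between -0.07 and 0.31.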

How the data were processed

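Single 2-cell embryos were sequenced after amplification of their cDNA. The authors mapped reads to mm9 with RUM, kept uniquely mapped reads and deposited raw counts per RefSeq transcript; per the labels, differential expression was called with DESeq 1.10.0. How reads shared by isoforms were counted is not given in the sources used here. Symbols for 26136 of 26823 rows (97.4%) came from RefSeq's table for GRCm38.p6, used for names only, and positions and lengths from GENCODE vM1 on mm9.

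From the counts, CPM of the file total were computed, and groups were compared with edgeR 4.0.16 (TMM, glmQLFit and glmQLFTest, R 4.3.3) wherever 3 or more embryos reached 10 counts, or 1 embryo in the single-embryo fits. Benjamini-Hochberg adjustment covered all transcripts tested, with the study's threshold of 0.1. The SE is the size of the log2 fold change over the root of F, and intervals are 95%. Totals were 2852858 to 13355161 counts per embryo. The fits were repeated with DESeq2 1.42.0, with limma 3.58.1 (random effect of father) and under other filters, scalings and thresholds. They were also repeated after merging rows with identical counts in every embryo, after summing each father, blocked by embryo number, and leaving out each embryo or father. That merging did not join the member rows of Ccnd3 and Ccne2 with their other isoform rows, whose counts were equal in only 17 and 14 of 18 embryos. Exact permutations and the tests among fathers of a group were added after the data were seen. The scripts were tested on simulated data. Embryos that share a number within their fathers (1, 2 or 3) did not deviate together (median correlation 0.006 over 27 pairs), and no block was used. Named genes are the members, Parg, the 2 smallest p-values per list, and the transcript with the highest Pearson r with each member among those of mean CPM at least 10. The members were fixed by RefSeq identifier and not by their values, but members and lists were chosen with earlier results of these data known. The separate embryos are the replicates, 3 to a father.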

Additional observations from a re-analysis of the deposited data

Results flagged for a closer look

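In groups of 9 embryos, 7 of the 19 group levels examined had 1 embryo set off from the rest by more of the group's range than Dixon's 95% critical value allows. Chance sets off about 1 in 20 groups of normally distributed values, but 33.6% of the groups of 9 over all transcripts tested were set off in the same way, so 7 of 19 lies near the background, and where 8 of 9 values are 0 the remaining embryo is set off by construction. All 7 were high values. Cdk1 in wild-type embryo 1-3 was at 205.518 CPM, with the next embryo at 119.436 CPM. Ccna2 in wild-type embryo 3-3 was at 227.639 CPM against 147.879 CPM for the next, and the same embryo held the only Ccna1 counts, at 1.914 CPM. Ccnb2 in wild-type embryo 2-3 was at 49.775 CPM against 23.345 CPM, and Ccnd2 in that embryo at 13.671 CPM against 1.423 CPM. Ccnd1 in wild-type embryo 3-1 was at 6.25 CPM against 2.634 CPM. Ccnd2 in Parg(110) embryo 7-3 was at 17.309 CPM, with 0 in the other 8 embryos of its group. What set these embryos off was not tested.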

How the results depend on the processing

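Over 408 recomputed values, 359 were classed as unchanged, by a rule that differed with the kind of value. Of 287 member fold changes, 243 kept their direction and side of the threshold and 44 turned sign. Of 112 counts of transcripts or members, most of them 0 in the main fit, 107 stayed the same and 5 moved. The 9 CPM differences each moved by less than the wild-type SD. Cdk1 and Ccnb2 kept their sign throughout; with embryos or fathers left out, the log2 fold change ran from -1.02 to -0.56 for Cdk1, 0.45 to 1.52 for Ccnb2, -0.27 to 0.055 for Ccna2, -0.14 to 0.20 for Ccnb1, -1.07 to 0.72 for Ccnd1, -0.52 to 0.66 for Ccnd2, -0.11 to 0.29 for Ccnd3, -0.48 to 0.45 for Ccne1 and -0.018 to 1.36 for Ccne2. The sparse Ccnd2 turned to -3.52 with DESeq2, -2.87 with the embryo number as replicate block and -1.08 with limma and the father as a random effect; the cause was not tested. With that replicate block, 0 transcripts passed and Cdk1 was at -0.80 (adjusted p = 0.855), so the pairing by number changed no call. DESeq2 called 38 transcripts between the groups and 2 members in single embryos, where edgeR called 0 of each, and leaving out embryos or fathers gave 0 to 5 transcripts, 5 without father 6. Ccna1, Ccnd1 and Ccnd2 had at most 76 counts in any embryo.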

Other observations

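Rb1, the pocket protein that restrains E2f factors, also had an unadjusted p below 0.05, with a log2 fold change of 0.75 (SE 0.33, unadjusted p = 0.0321, adjusted p = 0.804 by edgeR's quasi-likelihood test, n = 9 embryos per group). It fell outside the rule of 2 named genes per list and was named after its values were seen. Cdk6, Cdkn2a, Cdkn2b and E2f3 were the 4 listed genes with too few counts to be tested.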
